A study of Mus musculus with 42 samples.

Results

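Transcript levels in neuronal cultures of trisomic Ts65Dn mice were compared with those of euploid cultures over all expressed genes. The members were the 3 libraries labelled Euploid and the 3 labelled Ts65Dn among the culture RNA-seq libraries, chosen by their labels alone, which makes 6 of the 42 samples of the series and 6 of its 9 culture libraries. The cultures came from embryonic day 16 (E16) brain, described as forebrain in the labels and as cortex in the study's methods. Ts65Dn, labelled Trisomic, carries an additional chromosome made of the distal end of chromosome 16 joined to the centromere end of chromosome 17, passed on by the mother, on a mixed DBA/2J and B6EiC3Sn/J background that the euploid embryos of the same crosses share. Cortices had been kept apart by embryo until plating, first in medium with serum and then in serum-free neurobasal medium with B27 and with AraC, an agent that kills dividing cells, against proliferating glia. No drug, virus or stimulus distinguished the groups. Nothing says which embryo or culture each library is, so p-values measure only the spread between these libraries, which may be technical.

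Ts65Dn is a widely used mouse model of Down syndrome. The triplicated segment holds the mouse counterparts of many genes of human chromosome 21, among them a cluster of interferon and cytokine receptor genes and the chromatin reader Brwd1, about which the study asked. Primary cultures of embryonic forebrain hold postmitotic glutamatergic and GABAergic neurons, which make synaptic vesicle proteins, receptors and ion channels as they mature, besides progenitors, astrocytes and a few cells of vessels and meninges. Neurons and progenitors of each brain division carry their own transcription factors, such as Lhx2 in the cortex and Irx, Pax7 and En genes further back. Interferons act through paired receptor chains and STAT transcription factors that bind a short promoter motif, the interferon-stimulated response element (ISRE).

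Counts in gene lines totalled between 20663650 and 24743368 per library. Of 52636 gene lines, 16801 genes passed the filter on low counts (filterByExpr of edgeR) and were tested. Levels are given as CPM, counts relative to library size as scaled by TMM factors, always in the order of libraries 1, 2 and 3 of a group, and a difference is the log2 fold change of Ts65Dn over euploid with its standard error (SE). The SE was derived from the test, as the absolute log2 fold change divided by the square root of its F statistic. A gene was called higher or lower at an adjusted p under 0.05 (edgeR quasi-likelihood test, Benjamini-Hochberg adjustment over all genes tested). The labels describe pools of males and females, whereas all 6 libraries held Y-linked transcripts (190 to 223 CPM summed over 4 genes) and hardly any Xist (0.517 to 1.11 CPM), the RNA that females make from the inactive X chromosome. These sex-linked values alone were not scaled by TMM factors. Replicates correlated across genes with r between 0.982 and 0.994, and the biological coefficient of variation was 0.101 in euploid and 0.162 in Ts65Dn libraries. Brwd1 (chromosome 16, 95992092 to 96082526 of mm10, in the segment) was at 94.3, 86.5 and 87.4 CPM in euploid and 126, 123 and 122 CPM in Ts65Dn (log2 fold change 0.47 ± 0.07, edgeR adjusted p = 0.00278), with no overlap between the groups.

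The neuronal markers Tubb3, Rbfox3 and Snap25 were present in every library and lower in all 3 Ts65Dn libraries. Of the other markers listed for the label, Gad1 is given below, and Map2, Syt1 and Slc17a7 are not reported here. Tubb3, the neuronal beta-tubulin, was at 801, 928 and 682 CPM in euploid and 367, 331 and 104.5 CPM in Ts65Dn. Rbfox3, which encodes the nuclear antigen NeuN, was at 114, 141 and 107 CPM in euploid and 66.9, 66.02 and 30.3 CPM in Ts65Dn, and Snap25, a protein of the vesicle fusion machinery, at 303, 254 and 243 CPM in euploid and 154, 134 and 49.1 CPM in Ts65Dn. No euploid library overlapped a Ts65Dn library in these genes, and Ts65Dn library 3 was the lowest of all 6 in each. The log2 fold changes were -1.59 ± 0.41 (edgeR adjusted p = 0.0184) for Tubb3, -1.15 ± 0.28 (0.015) for Rbfox3 and -1.24 ± 0.37 (0.0291) for Snap25. Without euploid library 1 or 2, edgeR adjusted p was 0.0584 and 0.0645 for Tubb3, 0.0468 and 0.0584 for Rbfox3 and 0.0952 and 0.0729 for Snap25, whose adjusted p was also 0.0548 without euploid library 3. In RNA from whole cultures, fewer cells of a type and less RNA per cell cannot be told apart.

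Ts65Dn library 3 departed most from its group. On the first principal component of log2 CPM, which held 79.3% of the variance, the euploid libraries scored -51.6, -50.7 and -41.7 and the Ts65Dn libraries 30.8, 39.7 and 73.6. A comparison of the other 5 libraries alone, on 17065 genes, called 3113 genes higher (18.2%) and 3113 lower (18.2%). Of the genes called with all 6 libraries, 6001 (84.5%) were called in the same direction without it, 1103 lost the call (620 higher, 483 lower) and 0 were called the other way, while 183 were called only without it. Of the genes tested with all 6 libraries, 3094 were called lower from the other 5, and over these the median deviation from the euploid mean was -0.63 and -0.72 log2 units in Ts65Dn libraries 1 and 2 and -1.14 in library 3, which lay beyond both in 2528 of them. Over the 3090 called higher, the medians were 0.66, 0.74 and 0.86, with library 3 beyond both in 2059. Library 3 thus stood out more among the genes that fell than among those that rose, and each gene list below is given with and without it.

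**Figure D1:**
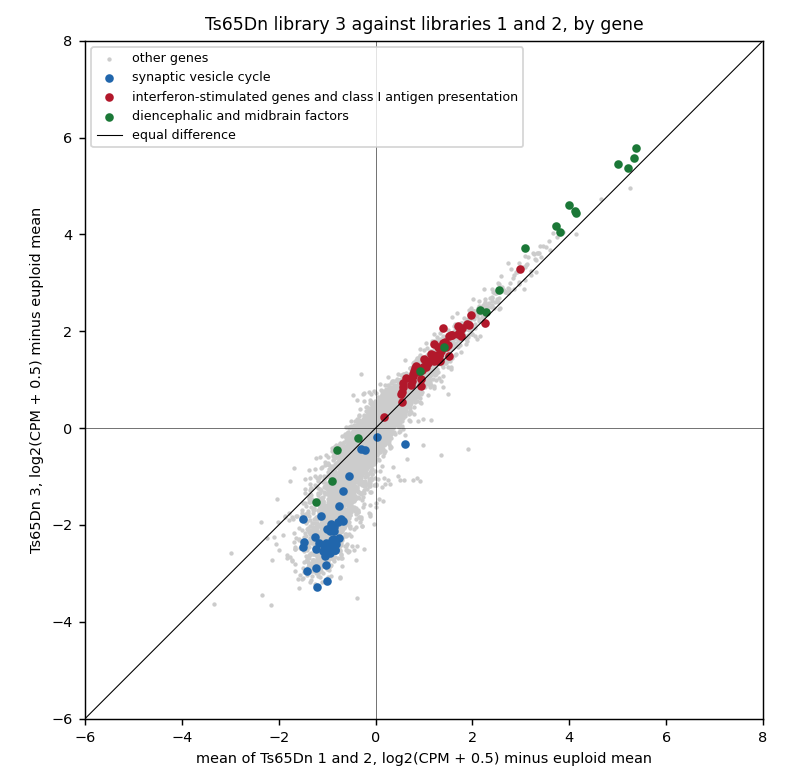
Difference from the euploid mean, in log2 of CPM plus 0.5, of Ts65Dn library 3 (vertical) against the mean of Ts65Dn libraries 1 and 2 (horizontal), 1 point per gene, with 3 gene lists in colour and the line of equal difference. Synaptic vesicle genes lie well below the line, library 3 being lower than the other libraries, while interferon and diencephalic genes lie near it.

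With all 6 libraries, 7104 of 16801 genes were called (42.3%), 3664 higher (21.8%) and 3440 lower (20.5%) in Ts65Dn. The median log2 fold change over all genes was 0.01. Of the calls, 4333 exceeded 1.5-fold. Over 2-fold, 1099 genes were higher and 1242 lower, and over 8-fold 114 were higher and 16 lower. All Ts65Dn libraries lay above all euploid libraries in 29.2% of genes and below them in 28.3%. Each count below is read against these shares. Leaving out a euploid library removed more calls than leaving out Ts65Dn library 3, with 4782, 4784 and 5476 calls kept without euploid libraries 1, 2 and 3, and 6183 and 5333 without Ts65Dn libraries 1 and 2.

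**Figure D2:**
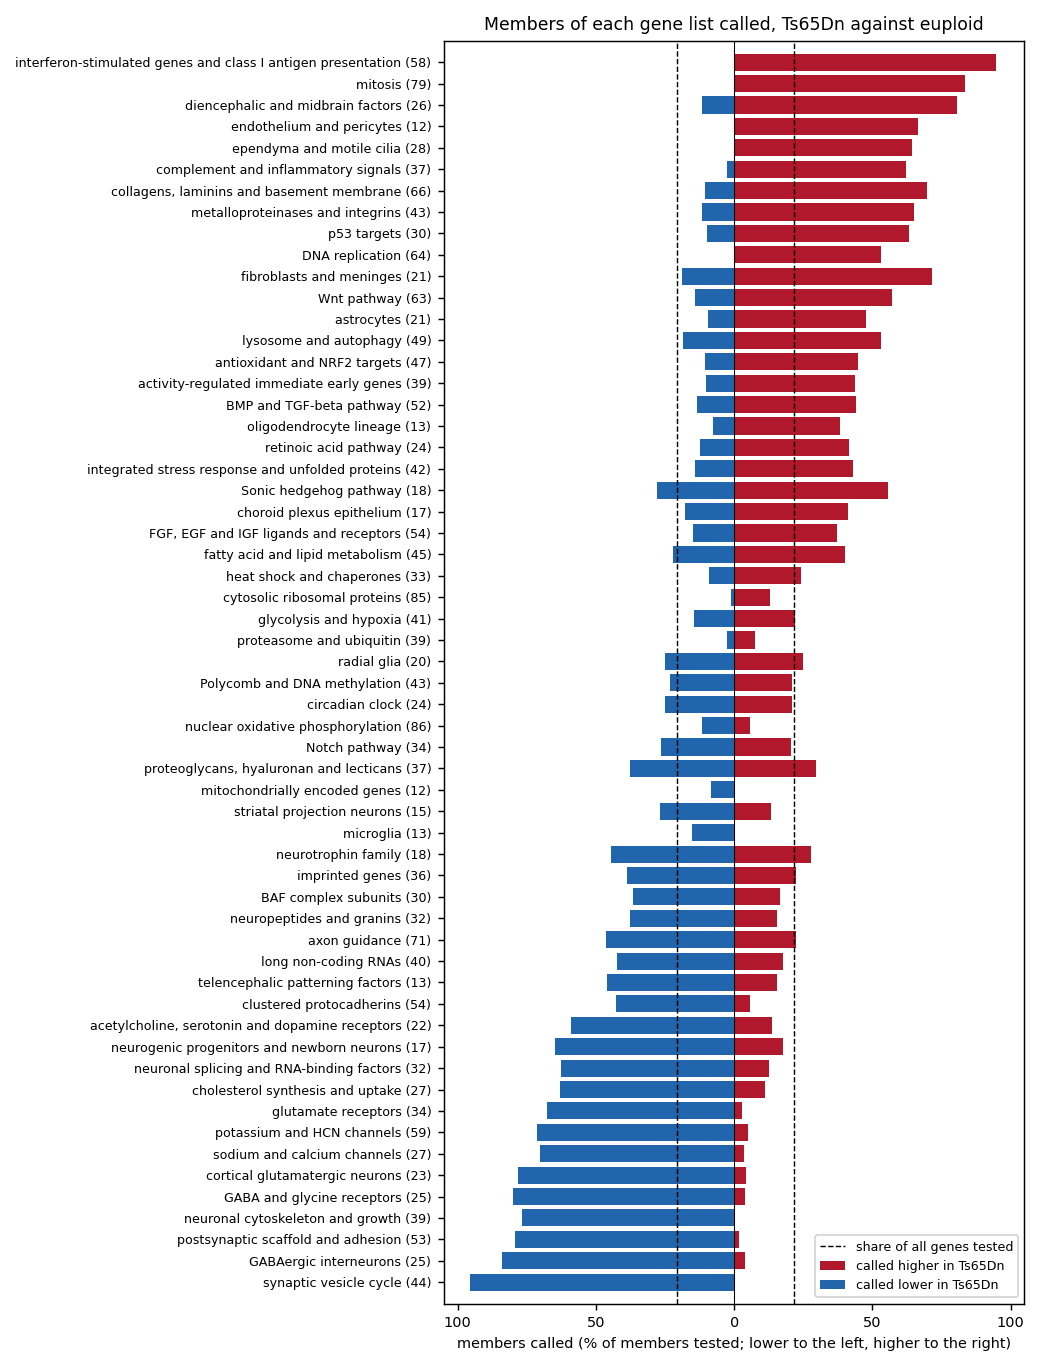
Share of the tested members of each gene list with at least 10 tested genes called higher or lower in Ts65Dn (percent), beside the shares over all genes tested, 21.8% higher and 20.5% lower. Interferon-stimulated genes (55 of 58 higher) and synaptic vesicle genes (42 of 44 lower) lie at the ends of the plot.

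Genes of the triplicated segment were mostly higher, as a group with a median log2 fold change of 0.60. Of 133 tested, 87 were called higher and 4 lower (89 and 5 without Ts65Dn library 3, and 10 lower with the replicate number as a block). The segment was taken as chromosome 16 from 84717576 (Mrpl39) to its end and chromosome 17 from its start to 8986648 (Pde10a) of mm10. The 90 genes on chromosome 16 and 43 on chromosome 17 had medians of 0.59 and 0.61. Outside the segment, medians of the nuclear chromosomes lay between -0.05 and 0.05 log2 units. Of the lists below, those of choroid plexus, of metalloproteinases and integrins and of oxidative phosphorylation each held 2 tested genes of the segment. Those of glutamate receptors, DNA replication, heat shock, antioxidant genes and BAF subunits each held 1.

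Interferon-stimulated genes and genes of class I antigen presentation formed the list with the highest share of higher calls among those with more than 10 tested genes. Of 58 tested, 55 were called higher and 55 lay above all euploid libraries in all Ts65Dn libraries, with a median log2 fold change of 1.35 beside 0.01 over all genes. Without Ts65Dn library 3, 54 were called higher with a median of 1.19, and without any other library between 43 and 58. The 3 that were not called were Ifit2, Gbp2 and Oasl1. Several called members carry the ISRE core in the 250 bases before their start, and those 6 with the largest log2 fold change are shown with up to 25 bases on each side, 5′ to 3′ on the gene's own strand (GRCm38.p6, starts from RefSeq), every core or its reverse complement in the window in capitals, overlapping ones running together.
Oas1a (chr5:120907526-120907564, minus strand): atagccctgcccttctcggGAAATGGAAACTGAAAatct
H2-T23 (chr17:36032791-36032850, minus strand): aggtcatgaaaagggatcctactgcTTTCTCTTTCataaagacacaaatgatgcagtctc
Bst2 (chr8:71537562-71537621, minus strand): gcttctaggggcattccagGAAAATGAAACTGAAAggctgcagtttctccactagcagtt
Trim30a (chr7:104465195-104465254, minus strand): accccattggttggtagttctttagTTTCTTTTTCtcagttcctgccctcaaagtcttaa
Irgm1 (chr11:48871421-48871469, minus strand): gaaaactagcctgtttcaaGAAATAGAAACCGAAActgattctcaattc
Oas1g (chr5:120887614-120887650, minus strand): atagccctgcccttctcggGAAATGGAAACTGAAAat

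The core, GAAA followed by 2 bases of any kind and GAAA again, searched on both strands, was in the promoters of 19 of the 46 listed genes that had a RefSeq promoter (41.3%) and in 366 of 11745 over all tested genes (3.12%). It was in 4.52% of genes called higher and 2.71% of genes called lower. A match is a string of letters and shows no binding. Oas1a and Oas1g, printed above, are neighbours of a multigene family with near-identical windows, and counts of such genes and of the H2 genes may include reads shared with their relatives.

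Class I molecules, which present peptides to T cells, held the largest differences of the group. H2-D1, a classical class I heavy chain, was at 26.02, 20.1 and 22.96 CPM in euploid and 182, 186 and 228 CPM in Ts65Dn. H2-K1, its partner locus, was at 86.3, 60.5 and 58.5 CPM in euploid and 277, 254 and 341 CPM in Ts65Dn, and B2m, the light chain of both, at 191, 135 and 158 CPM in euploid and 333, 325 and 382 CPM in Ts65Dn. No Ts65Dn library overlapped a euploid library, and the log2 fold changes were 3.11 ± 0.14 (edgeR adjusted p = 2.01e-05), 2.09 ± 0.18 (2.51e-04) and 1.10 ± 0.14 (0.00128). H2-M3, a non-classical heavy chain, rose by 2.99. Tap1, Tap2 and Tapbp, which load the peptides, rose by 0.94, 0.89 and 1.11, and the immunoproteasome subunits Psmb8, Psmb9 and Psmb10, which cut them, by 1.62, 1.01 and 0.55. Genes named here and in the next paragraph beyond the naming rule were chosen after their values were seen.

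Among the antiviral genes, Oas1a, whose product activates RNase L, was at 1.37, 0.309 and 0.401 CPM in euploid and 2.47, 2.36 and 4.17 CPM in Ts65Dn, so that euploid library 1 lay above the others of its group and below every Ts65Dn library. Its log2 fold change of 2.14 ± 0.49 (edgeR adjusted p = 0.0118) was 3.06 without euploid library 1. Euploid library 1 stood higher over the whole group, by 0.49 log2 units against -0.25 and -0.24 in euploid libraries 2 and 3, and the Ts65Dn libraries stood at 1.33, 1.22 and 1.55. Irf7, which drives interferon genes, rose by 1.93 ± 0.24, Bst2, which tethers virus particles, by 1.77 ± 0.20 and Ifitm3, which blocks virus entry, by 1.84 ± 0.09.

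The triplicated segment holds a cluster of receptor genes for interferons. Ifnar1, a chain of the type I receptor, was at 93.98, 90.6 and 90.8 CPM in euploid and 157, 161 and 168 CPM in Ts65Dn, and its partner Ifnar2 at 13.9, 13.4 and 13.3 CPM in euploid and 28.6, 33.4 and 33.2 CPM in Ts65Dn, with log2 fold changes of 0.82 ± 0.07 and 1.23 ± 0.09. Il10rb, a chain shared by interleukin-10 and type III interferon receptors, was at 1.33, 1.15 and 1.25 CPM in euploid and 5.94, 6.17 and 6.06 CPM in Ts65Dn (log2 fold change 2.28 ± 0.14). The groups did not overlap in these 3 genes. Ifngr2, a chain of the type II interferon receptor in the same cluster, was at 71.6, 62.8 and 55.2 CPM in euploid and 79.5, 74.99 and 64.8 CPM in Ts65Dn and was not called (log2 fold change 0.21 ± 0.12, edgeR adjusted p = 0.192). Of 20 listed microglia markers, a cell type that makes interferon-stimulated genes, 13 were tested, 2 were called lower and the other 11 were not called. Their median log2 fold change was -0.51 (0 higher and 2 lower, median -0.76, without Ts65Dn library 3). It was -0.02 without euploid library 1 and -0.90 without euploid library 3. Lower calls of this list numbered 1 without euploid library 1, euploid library 2 or Ts65Dn library 2 and 4 without euploid library 3. The list's mean level lay between -0.81 and 0.74 log2 units in the euploid and between -0.89 and -0.19 in the Ts65Dn libraries. Tyrobp, Trem2, P2ry12, Tmem119, Itgam, Siglech and Cd53 were too low to be tested, and Aif1, a cytoskeletal protein of microglia, was at 5.11, 4.33 and 3.97 CPM in euploid and 2.07, 1.01 and 0.645 CPM in Ts65Dn (log2 fold change -1.82, and -2.44 without Ts65Dn library 1).

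Complement and inflammatory genes also rose, with 23 of 37 called higher and 1 lower and a median of 0.75 (22 higher and 1 lower, median 0.60, without Ts65Dn library 3). Serpina3n, a secreted protease inhibitor of reactive astrocytes, was at 9.08, 6.67 and 6.87 CPM in euploid and 88.8, 69.6 and 87.3 CPM in Ts65Dn. C3, the central complement component, was at 259, 180.1 and 202 CPM in euploid and 771, 638 and 906 CPM in Ts65Dn, and Lcn2, an iron-carrier protein of reactive glia, at 4.12, 1.55 and 2.10 CPM in euploid and 22.4, 14.8 and 19.8 CPM in Ts65Dn. All Ts65Dn values were above all euploid values. The log2 fold changes were 3.44 ± 0.16 (edgeR adjusted p = 2.01e-05), 1.85 ± 0.18 (3.81e-04) and 2.89 ± 0.32 (7.26e-04). Il33, an alarm cytokine of glia, rose by 2.12.

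Genes of the synaptic vesicle cycle fell almost without exception. Of 44 tested, 42 were called lower and the other 2 were not called, with a median of -1.26. The list's mean deviation from euploid was -0.82, -0.995 and -2.16 log2 units in Ts65Dn libraries 1, 2 and 3. Without library 3, 41 were called lower and 1 higher and the median was -0.94. Without euploid library 1 or euploid library 2, the calls fell to 17 and 16, with medians of -1.25 and -1.25.

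Slc32a1, the vesicular GABA transporter, was at 122, 134 and 115 CPM in euploid and 44.6, 41.6 and 21.97 CPM in Ts65Dn. Sv2c, a vesicle glycoprotein, was at 61.6, 51.8 and 55.8 CPM in euploid and 20.1, 19.4 and 10.7 CPM in Ts65Dn, and Vamp2, the vesicle-side fusion protein, at 764, 788 and 719 CPM in euploid and 508, 519 and 382 CPM in Ts65Dn. Each Ts65Dn library was below each euploid library, and Ts65Dn library 3 was the lowest. The log2 fold changes were -1.78 ± 0.24 (edgeR adjusted p = 0.00169), -1.75 ± 0.22 (0.00126) and -0.69 ± 0.13 (0.00626). Synpr, a vesicle membrane protein, changed by -1.66 log2 units. The members not called were Syt2 at 2.504, 2.17 and 2.54 CPM in euploid and 3.67, 4.15 and 1.81 CPM in Ts65Dn and Vamp1 at 21.4, 23.1 and 23.9 CPM in euploid and 24.5, 22.1 and 19.9 CPM in Ts65Dn.

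**Figure D3:**
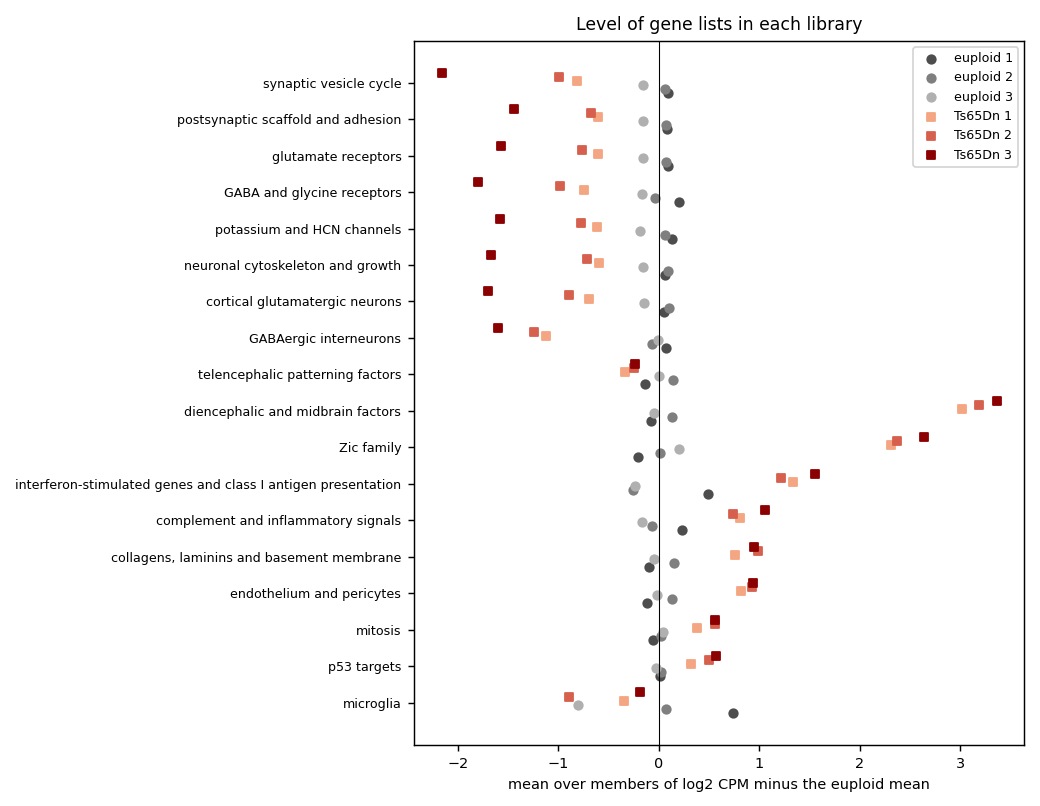
Mean over the members of each list of log2 CPM minus the euploid mean (horizontal), 1 point per library, euploid as circles and Ts65Dn as squares. In the synaptic vesicle list the Ts65Dn libraries stand at -0.82, -0.995 and -2.16, and in the interferon list at 1.33, 1.22 and 1.55.

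The postsynaptic side went the same way. Of 53 scaffold and adhesion genes, 42 were called lower and 1 higher (median -0.92, and 43 lower with a median of -0.74 without Ts65Dn library 3). Slitrk3, an adhesion protein of inhibitory synapses, was at 60.5, 58.3 and 51.1 CPM in euploid and 21.7, 17.6 and 7.22 CPM in Ts65Dn (log2 fold change -1.87 ± 0.34, edgeR adjusted p = 0.00494). Of 34 glutamate receptor genes 23 were called lower and 1 higher, and of 25 GABA and glycine receptor and transporter genes 20 and 1. The former had 1 higher and 24 lower, median -0.82, without Ts65Dn library 3, and the latter 1 higher and 20 lower, median -0.80, without Ts65Dn library 3. Grin3a and Grin2d, NMDA receptor subunits of early development, changed by -1.65 and -1.64 log2 units. Gria1, a main AMPA receptor subunit, was at 541, 495 and 467 CPM in euploid and 494, 448 and 402 CPM in Ts65Dn and was not called (log2 fold change -0.16 ± 0.11). Htr2a and Htr2c, serotonin receptors, changed by -2.11 and -2.08, and of the 22 acetylcholine, serotonin and dopamine receptor genes 13 were lower and 3 higher (3 higher and 14 lower, median -0.95, without Ts65Dn library 3).

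These receptor counts also depended on which euploid libraries entered. Without euploid library 1 or euploid library 2, 20 and 20 postsynaptic genes, 12 and 11 glutamate receptor genes and 13 and 16 GABA and glycine receptor genes were called lower. The medians were -0.87 and -0.89, -1.03 and -1.05, and -1.14 and -1.16 in the same order.

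Ion channels of the nerve cell membrane fell likewise, with 19 of 27 sodium and calcium channel genes and 42 of 59 potassium and HCN channel genes called lower and 1 and 3 higher. The medians were -1.04 and -1.02 (-0.82 with 19 lower and -0.78 with 46 lower without Ts65Dn library 3). Scn3a, an embryonic sodium channel, was at 73.3, 68.8 and 54.8 CPM in euploid and 26.9, 22.3 and 8.47 CPM in Ts65Dn. Kcna3, a voltage-gated potassium channel, was at 12.6, 14.1 and 11.6 CPM in euploid and 3.31, 3.91 and 2.45 CPM in Ts65Dn. Neither overlapped between the groups (log2 fold changes -1.77 ± 0.36 and -1.99 ± 0.17, edgeR adjusted p = 0.00796 and 2.51e-04). Kcnj11, an inward rectifier that senses ATP, changed by -1.77 log2 units, whereas Kcnj10, the inward rectifier of astrocytes, was at 671, 629 and 685 CPM in euploid and 523, 551 and 594 CPM in Ts65Dn and was not called (edgeR adjusted p = 0.0628, and 0.0393 with the replicate number as a block). Without euploid library 1 or 2, 11 and 10 sodium and calcium channel genes and 23 and 25 potassium channel genes were called lower. Higher calls of potassium channel genes numbered 1 without euploid library 3 or Ts65Dn library 2 and 5 with the replicate number as a block.

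Of 39 genes of the neuronal cytoskeleton and neurite growth, 30 were called lower and the other 9 were not called (median -0.96, and 15 and 15 lower without euploid libraries 1 and 2, and 1 higher and 32 lower, median -0.73, without Ts65Dn library 3). Dcx, the microtubule protein of migrating neurons, was at 308, 234 and 248 CPM in euploid and 115, 99.3 and 60.8 CPM in Ts65Dn. Kif1a, a motor for vesicle precursors, was at 1952, 2210.1 and 1791 CPM in euploid and 1244, 1158 and 770.2 CPM in Ts65Dn. Both were lower in every Ts65Dn library (log2 fold changes -1.52 ± 0.23 and -0.91 ± 0.19, edgeR adjusted p = 0.00251 and 0.00837). RNA-binding factors that set neuronal splicing fell in 20 of 32 and rose in 4, with Rbfox1 at 101, 104 and 76.4 CPM in euploid and 40.1, 38.4 and 14.6 CPM in Ts65Dn. Without euploid library 2, 13 of them were lower, and the counts were 3 higher and 19 lower, median -0.57, without Ts65Dn library 3.

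Identity genes of GABAergic interneurons fell in most cases, with 21 of 25 called lower, 1 higher and a median of -1.61 (1 higher and 21 lower, median -1.39, without Ts65Dn library 3). The count was between 20 and 21 whichever library was left out, and the list's mean deviations were -1.13, -1.25 and -1.60 log2 units in the 3 Ts65Dn libraries. Gad1 and Gad2, which make GABA, were at 188, 157 and 187 CPM in euploid and 70.6, 58.3 and 34.2 CPM in Ts65Dn and at 106, 79.8 and 90.3 CPM in euploid and 30.2, 26.7 and 15.7 CPM in Ts65Dn, respectively. The groups were far apart in both genes, with log2 fold changes of -1.71 ± 0.24 and -1.93 ± 0.23 (edgeR adjusted p = 0.00196 and 0.00105). Dlx1, Dlx5 and Dlx6, homeobox genes of the ganglionic eminences, changed by -1.71, -1.20 and -1.43 log2 units, Lhx6, which acts in interneurons of the medial eminence, by -1.65 and the neuropeptide gene Sst by -1.62. Nkx2-1, the factor that specifies the medial eminence, was at 2.16, 2.52 and 2.68 CPM in euploid and 0.120, 0.338 and 0.559 CPM in Ts65Dn (log2 fold change -2.86 ± 0.37, with -3.46 without Ts65Dn library 3). Sox6, which also acts in medial-eminence interneurons, was the exception that rose (0.43).

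Cortical glutamatergic genes showed 18 of 23 lower and 1 higher with a median of -1.10. Here Ts65Dn library 3 stood further out, with mean deviations of -0.70, -0.89 and -1.70 log2 units. Bhlhe22, a transcription factor of cortical projection neurons, was at 110.0, 104.6 and 83.2 CPM in euploid and 35.2, 29.2 and 10.9 CPM in Ts65Dn. Neurod1, a neuronal differentiation factor, was at 15.5, 17.7 and 12.5 CPM in euploid and 5.50, 6.51 and 2.54 CPM in Ts65Dn, and Camk2a, a kinase of excitatory synapses, at 733, 787 and 598 CPM in euploid and 413, 357 and 218 CPM in Ts65Dn. Each Ts65Dn library was below each euploid library (log2 fold changes -1.98 ± 0.37, -1.66 ± 0.30 and -1.10 ± 0.23, edgeR adjusted p = 0.0057, 0.00511 and 0.00854). Cux1, which marks upper layers, rose by 0.31 and lost the call without Ts65Dn library 2 (edgeR adjusted p = 0.0595). Without Ts65Dn library 3, 18 were called lower with a median of -0.93, and without euploid library 1 or 2, 11 and 11. Camk2a reached an adjusted p of 0.0365 and Bhlhe22 of 0.028 without euploid library 1.

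Smaller neuron lists moved less evenly. Of 9 Cajal-Retzius genes 5 were called lower and 1 higher with a median of -0.59 (0 higher and 5 lower, median -0.61, without Ts65Dn library 3). The higher call was also lost without any euploid library or Ts65Dn library 1 and with the replicate number as a block. Reln, the secreted signal of these cells and of interneurons, was at 175, 159 and 152 CPM in euploid and 64.98, 66.5 and 33.97 CPM in Ts65Dn and Calb2, which encodes calretinin, at 54.4, 52.7 and 56.7 CPM in euploid and 13.5, 10.51 and 7.83 CPM in Ts65Dn. Of 15 striatal genes 4 were lower and 2 higher (median -0.37, and 2 higher and 4 lower, median -0.10, without Ts65Dn library 3). Pdyn, the precursor of dynorphin, was at 8.15, 7.56 and 8.25 CPM in euploid and 1.68, 1.30 and 1.29 CPM in Ts65Dn (log2 fold change -2.48 ± 0.15, edgeR adjusted p = 5.66e-05), and Rarb, a retinoic acid receptor of the striatum, rose by 1.09. Eomes, the factor of intermediate cortical progenitors, was at 2.31, 2.34 and 3.26 CPM in euploid and 0.199, 0.482 and 0.172 CPM in Ts65Dn, and Insm1, which acts as progenitors leave the cycle, at 24.3, 30.2 and 25.6 CPM in euploid and 6.94, 8.73 and 6.84 CPM in Ts65Dn (log2 fold changes -3.23 ± 0.35 and -1.83 ± 0.13). Of 17 genes of neurogenic progenitors and newborn neurons, 11 were lower and 3 higher (3 higher and 10 lower, median -0.64, without Ts65Dn library 3). Those that rose included Igfbpl1 (2.10) and Mfap4 (1.82).

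Transcription factors of the diencephalon, midbrain and hindbrain border held the largest rises of the whole comparison. Of 34 listed, 26 were tested, 21 were called higher and 3 lower, with a median of 3.78 (21 higher and a median of 3.72 without Ts65Dn library 3). Members that were near 0 in euploid passed the filter through the Ts65Dn libraries alone and had to be higher, so these values describe the tested members only. Requiring 10 counts in every library left 12 tested, with 7 called higher, 3 lower and a median of 1.28. Pax3, a factor of the dorsal neural tube and midbrain, was listed at 0 in every euploid library and at 16.8, 19.1 and 20.1 CPM in Ts65Dn, which is at least 406-fold higher against a floor of 3 counts over the group. Pax7, of the dorsal midbrain, had 3 euploid counts in all and was at 15.2, 18.9 and 23.1 CPM in Ts65Dn (414-fold, 95% counting interval 141 to 2009). Foxb1, of the mammillary region and thalamus, had 1 euploid count and was at 7.38, 9.93 and 10.7 CPM (606-fold, interval 108 to 2.40e+04). All 3 euploid counts of Pax7 were in euploid library 2 and that of Foxb1 in euploid library 3, so that these folds rest on those libraries. The fitted log2 fold changes, 8.53 and 8.81, were 11.73 and 10.71 without them. The intervals cover counting error only. The 3 Ts65Dn libraries were alike in these genes and held them at levels that no euploid library approached.

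Irx1 and Irx2, homeobox genes expressed behind the telencephalon, were at 0.442, 0.265 and 0.446 CPM in euploid and 31.4, 41.3 and 48.2 CPM in Ts65Dn and at 0.196, 0.177 and 0.0892 CPM in euploid and 25.3, 26.6 and 30.8 CPM in Ts65Dn, respectively. Otx2, a factor of the forebrain and midbrain that is also made in choroid plexus, was at 3.19, 3.98 and 3.88 CPM in euploid and 57.1, 59.4 and 68.1 CPM in Ts65Dn. The groups were separate in each, with log2 fold changes of 6.70 ± 0.25, 7.44 ± 0.21 and 4.06 ± 0.12 (edgeR adjusted p = 1.71e-05, 1.08e-05 and 1.08e-05). En1 and En2, factors of the midbrain-hindbrain border, rose by 2.47 and 2.42 and Pax2, of the same border, by 2.83. Lhx9, Tal1 and Lmx1a, listed with them, changed by -1.37, -1.72 and -0.71. Of 21 hindbrain and Hox genes only 3 passed the filter, and Egr2 (1.65) and Gbx2 (3.04) of these were higher, with and without Ts65Dn library 3. Gbx2, below 1 CPM in every euploid library, passed the filter through the Ts65Dn libraries. With 10 counts required in every library, 2 genes were tested and 1 was higher. Barhl2, of the diencephalon, was at 0.147, 0 and 0.0892 CPM in euploid and 9.93, 9.16 and 12.3 CPM in Ts65Dn (log2 fold change 6.998, and 7.71 without euploid library 1), and Mab21l2, which acts in eye and midbrain, was listed at 0 in euploid and at 5.31, 5.84 and 5.89 CPM in Ts65Dn, at least 124-fold higher by the same floor.

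The Zic family of zinc-finger factors, which act in the dorsal midline, meninges, septum and thalamus, was higher in 5 of 5. Zic1 was at 8.45, 9.54 and 10.9 CPM in euploid and 95.7, 98.5 and 121 CPM in Ts65Dn and Zic4, its neighbour, at 3.14, 3.89 and 5.26 CPM in euploid and 56.7, 50.97 and 64.97 CPM in Ts65Dn, whereas Zic2 moved less and was at 27.99, 33.6 and 31.7 CPM in euploid and 49.2, 51.5 and 61.96 CPM in Ts65Dn. All were separate between the groups (log2 fold changes 3.45 ± 0.14, 3.81 ± 0.19 and 0.80 ± 0.11, edgeR adjusted p = 1.76e-05, 3.03e-05 and 0.00206), and the 5 calls held whichever library was left out. Telencephalic factors went both ways. Lhx2, of the cortex, changed by -0.95, while Pax6, a factor of dorsal radial glia, was at 64.03, 69.4 and 77.9 CPM in euploid and 134, 156 and 165 CPM in Ts65Dn (log2 fold change 1.10 ± 0.11). In all, 6 of 13 fell, 2 rose (2 higher and 6 lower, median -0.26, without Ts65Dn library 3) and Nr2f1 was at 198, 235 and 207 CPM in euploid and 169, 188 and 191 CPM in Ts65Dn and was not called.

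Genes of dividing cells rose by small amounts. Of 79 mitosis genes 66 were called higher and the other 13 were not called (median 0.51), and of 64 replication genes 34 and 30 (median 0.41). Without Ts65Dn library 3, 58 and 27 were called higher, with medians of 0.47 and 0.37, and without euploid libraries 1 and 2 the replication genes called were 20 and 22. The mean deviations of the mitosis list were 0.38, 0.56 and 0.56 log2 units in the Ts65Dn libraries. Many promoters of mitotic genes hold the cell cycle genes homology region (CHR), to which complexes that repress these genes outside division bind. The letters TTTGAA, searched on both strands, were in the 250 bases before the start of 22 of 64 mitosis genes with a promoter (34.4%), of 17.3% of replication genes and of 1479 of 11745 tested genes (12.6%). They were also in 19.6% of the interferon list, above the replication genes, in 13.7% of genes called higher and in 11.5% of genes called lower. The 4 mitosis genes with the largest rise that hold it are shown as above, with every TTTGAA or its reverse complement in capitals.
Cdca5 (chr19:6085063-6085096, plus strand): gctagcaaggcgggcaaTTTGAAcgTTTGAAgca
Cdk1 (chr10:69352913-69352952, minus strand): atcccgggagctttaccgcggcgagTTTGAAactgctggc
Ccnb2 (chr9:70421691-70421746, minus strand): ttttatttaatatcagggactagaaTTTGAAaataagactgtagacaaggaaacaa
Cdc20 (chr4:118437344-118437386, minus strand): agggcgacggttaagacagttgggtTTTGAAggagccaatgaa

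Cdk1, the kinase that starts mitosis, was at 14.5, 16.1 and 15.2 CPM in euploid and 26.9, 28.6 and 27.9 CPM in Ts65Dn. Bub1, a kinase of the spindle checkpoint, was at 5.65, 5.70 and 5.13 CPM in euploid and 10.2, 11.8 and 11.3 CPM in Ts65Dn. Chaf1b, which places histones on new DNA and itself lies in the triplicated segment, was at 3.83, 4.55 and 4.01 CPM in euploid and 9.65, 11.6 and 12.5 CPM in Ts65Dn. The Ts65Dn libraries were alike and all above the euploid libraries (log2 fold changes 0.86 ± 0.08, 1.01 ± 0.11 and 1.44 ± 0.14, edgeR adjusted p = 3.52e-04, 6.54e-04 and 3.90e-04). Ckap5, a microtubule polymerase found also in cells that do not divide, was at 345, 306 and 337 CPM in euploid and 327, 312 and 345 CPM in Ts65Dn and was not called. Targets of the stress factor p53 rose in 19 of 30 and fell in 3, with a median of 0.45 (17 higher and 3 lower, median 0.36, without Ts65Dn library 3). Cdkn1a, the p21 inhibitor of cell cycle kinases, was at 90.7, 106 and 102 CPM in euploid and 207, 229 and 228 CPM in Ts65Dn, and Pmaip1, which promotes cell death, at 1.96, 1.46 and 1.47 CPM in euploid and 8.02, 10.7 and 11.4 CPM in Ts65Dn (log2 fold changes 1.15 ± 0.09 and 2.62 ± 0.20, edgeR adjusted p = 1.79e-04 and 1.33e-04). Plk2, Ddit4l and Tigar, also on this list, changed by -0.57, -0.41 and -0.64.

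Extracellular matrix genes were higher in most cases. Of 66 genes of collagens, laminins and basement membrane 46 were called higher and 7 lower (median 0.85, and 45 higher and 6 lower, median 0.86, without Ts65Dn library 3). Of 43 metalloproteinases, inhibitors and integrins 28 and 5 (median 0.53, and 27 higher and 6 lower, median 0.50, without Ts65Dn library 3). Lower calls of the latter numbered 2 without euploid library 1 or euploid library 2 and 3 without Ts65Dn library 2. Col8a1, a short-chain collagen, was at 21.9, 25.1 and 20.6 CPM in euploid and 211, 280.4 and 265 CPM in Ts65Dn. Mmp2, which cuts basement membrane, was at 8.30, 11.7 and 8.34 CPM in euploid and 116, 137 and 179 CPM in Ts65Dn, and Sparc, a collagen-binding protein, at 6032, 6103 and 6329 CPM in euploid and 9507, 11584 and 11889 CPM in Ts65Dn. No library of the groups overlapped (log2 fold changes 3.48 ± 0.14, 3.93 ± 0.21 and 0.84 ± 0.14, edgeR adjusted p = 1.76e-05, 3.38e-05 and 0.00346). Lox and Loxl1, which cross-link collagen, rose by 2.53 and 3.16, and Itga5, the fibronectin receptor, by 2.43.

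Markers of fibroblasts and meninges moved beside them, 15 of 21 higher and 4 lower (15 higher and 4 lower, median 1.03, without Ts65Dn library 3). Postn was at 6.63, 8.09 and 6.64 CPM in euploid and 65.7, 88.2 and 93.01 CPM in Ts65Dn and Col1a1 rose by 2.37, but Dcn, the decorin gene of meningeal fibroblasts, was at 15.5, 11.7 and 9.41 CPM in euploid and 1.28, 0.868 and 1.59 CPM in Ts65Dn and Lum changed by -2.42. Slc6a13, a transporter of meninges, had 1 count in Ts65Dn, in library 3, and was at 0.687, 1.55 and 0.446 CPM in euploid (62.3-fold higher in euploid, 95% counting interval 10.8 to 2501). Its fitted log2 fold change of -5.50 was -4.82 without euploid library 2 and -7.33 without Ts65Dn library 3. Of 12 tested vessel genes 8 were higher (8 higher and 0 lower, median 1.07, without Ts65Dn library 3). Kdr, the VEGF receptor, was at 79.8, 83.3 and 85.8 CPM in euploid and 636, 739 and 836 CPM in Ts65Dn and Acta2, the smooth muscle actin, at 222, 285 and 275 CPM in euploid and 727, 1105 and 1083 CPM in Ts65Dn. Pecam1, a defining endothelial gene, was at 0.982, 0.884 and 0.446 CPM in euploid and 0.558, 0.482 and 0.258 CPM in Ts65Dn and was not called, and Cdh5, Cldn5, Tek, Tie1, Esam and Emcn were too low to be tested. The part of these cell types in the matrix result was not tested. With the replicate number as a block, 2 vessel genes were called lower.

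Proteoglycans, hyaluronan and lectican genes, which form the loose matrix around neurons, went both ways, with 11 higher and 14 lower of 37 and a median of -0.15. Without Ts65Dn library 3, 12 were higher and 14 lower with a median of -0.08, and the median was -0.06 without euploid library 3. Hapln1, the link protein of perineuronal nets, was at 86.9, 52.1 and 57.7 CPM in euploid and 16.9, 11.5 and 4.601 CPM in Ts65Dn (log2 fold change -2.57 ± 0.42, edgeR adjusted p = 0.00339), and Podn, a small leucine-rich proteoglycan, rose by 2.31. Without euploid libraries 1, 2 and 3 and Ts65Dn library 2 the lower calls of this list were 7, 8, 8 and 9.

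Glial genes were mixed. Of 21 astrocyte genes 10 were called higher and 2 lower (median 0.32, and 9 higher and 2 lower, median 0.20, without Ts65Dn library 3). Aqp4, the water channel of astrocyte endfeet, was at 372, 244 and 313 CPM in euploid and 854, 768 and 824 CPM in Ts65Dn, and Aldh1l1, a folate enzyme used as a marker, at 60.3, 66.8 and 72.9 CPM in euploid and 136, 142 and 158 CPM in Ts65Dn (log2 fold changes 1.39 ± 0.16 and 1.12 ± 0.10, edgeR adjusted p = 7.27e-04 and 2.72e-04). Slc1a2, the main glutamate transporter of astrocytes, was at 394, 308 and 334 CPM in euploid and 239, 142 and 132 CPM in Ts65Dn and fell (log2 fold change -1.01 ± 0.23, edgeR adjusted p = 0.0111). Gfap, the intermediate filament of astrocytes, was at 516, 504 and 643 CPM in euploid and 727, 497 and 656 CPM in Ts65Dn and was not called. Of 20 radial glia genes 5 were higher and 5 lower (5 higher and 5 lower, median 0.15, without Ts65Dn library 3), but lower calls numbered 2 without euploid library 1 and 3 without euploid library 3 or Ts65Dn library 2 and higher calls 8 with the replicate number as a block. Vim, a filament of progenitors and astrocytes, was at 2419, 2856 and 2860.4 CPM in euploid and 4847, 5482 and 6454 CPM in Ts65Dn, and Hes5, a Notch target, at 3.93, 5.30 and 4.99 CPM in euploid and 1.83, 1.06 and 1.03 CPM in Ts65Dn. Of 13 oligodendrocyte genes 5 were higher and 1 lower (4 higher and 1 lower, median 0.20, without Ts65Dn library 3). Higher calls of this list numbered 3 without euploid library 1, euploid library 2 or Ts65Dn library 2. Among them, Cspg4, the NG2 proteoglycan of precursors and pericytes, was at 6.29, 7.03 and 7.22 CPM in euploid and 16.04, 18.3 and 18.7 CPM in Ts65Dn. Olig1, an oligodendrocyte factor that lies in the segment and is not on this list, was at 196, 253 and 210.3 CPM in euploid and 376, 458 and 487 CPM in Ts65Dn. Of 28 genes of motile cilia 18 were higher (16 without Ts65Dn library 3), with their regulator Foxj1 at 338, 399 and 416 CPM in euploid and 592, 631 and 761 CPM in Ts65Dn, and 11, 11 and 11 were without euploid library 1, euploid library 2 or Ts65Dn library 1.

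Choroid plexus genes went both ways, and the level of the best known of them was set by a euploid library. Ttr, which encodes the thyroid hormone carrier transthyretin of choroid plexus, was at 60.4, 646 and 75.1 CPM in euploid and 12.7, 14.7 and 11.01 CPM in Ts65Dn, with euploid library 2 far above every other library. Its log2 fold change of -4.35 ± 0.95 was -2.41 without euploid library 2 (edgeR adjusted p = 9.44e-04), the groups still being separate. Trpm3, a channel of choroid plexus and other brain cells, moved the other way and was at 8.00, 14.1 and 7.67 CPM in euploid and 57.7, 62.5 and 73.3 CPM in Ts65Dn. Of 17 genes 7 were higher and 3 lower with a median of 0.17 (6 higher and 4 lower, median 0.10, without Ts65Dn library 3). The median was 0.01 without euploid library 1 and 0.48 without euploid library 2. Igf2, a growth factor of choroid plexus and meninges, was at 19.3, 47.6 and 18.4 CPM in euploid and 6.38, 7.91 and 7.31 CPM in Ts65Dn, and its log2 fold change of -1.99 ± 0.37 was -1.39 without euploid library 2.

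Wnt genes, a family of secreted signals with Frizzled receptors that acts through beta-catenin and Tcf factors, were higher in 36 of 63 and lower in 9 (median 0.49, and 33 higher and 9 lower, median 0.41, without Ts65Dn library 3). Among ligands, Wnt3 was at 0.147, 0.177 and 0.357 CPM in euploid and 10.7, 9.31 and 11.5 CPM in Ts65Dn and Wnt5a rose by 0.64, while Wnt7a, Wnt7b and Wnt8b changed by -0.69, -0.86 and -1.29. Wls, which carries Wnt proteins out of the cell, was at 349, 306 and 342 CPM in euploid and 1148, 1206 and 1373 CPM in Ts65Dn, and Fzd10, a receptor, at 1.62, 2.39 and 1.56 CPM in euploid and 53.5, 62.3 and 61.4 CPM in Ts65Dn. The Ts65Dn libraries lay close together in these genes and far above the euploid libraries (log2 fold changes 5.48 ± 0.25, 1.90 ± 0.11 and 4.98 ± 0.16, edgeR adjusted p = 2.01e-05, 5.01e-05 and 1.08e-05). Of genes that beta-catenin signalling induces, Axin2, Nkd1 and Sp5 rose by 0.58, 1.26 and 1.74. Dkk2, an inhibitor, changed by -2.23.

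In the Sonic hedgehog pathway 10 of 18 genes rose and 5 fell (10 higher and 5 lower, median 0.35, without Ts65Dn library 3), but lower calls numbered 2 without euploid library 1 or euploid library 2. The transducer Smo was at 124, 138 and 134 CPM in euploid and 197, 245 and 279 CPM in Ts65Dn and the co-receptor Cdon at 56.5, 51.2 and 57.2 CPM in euploid and 133, 149.6 and 173 CPM in Ts65Dn, both higher (0.86 ± 0.13 and 1.47 ± 0.11), whereas the pathway's own target Hhip changed by -1.18 and Gli1, another target, was at 16.2, 21.1 and 17.6 CPM in euploid and 13.4, 17.9 and 16.3 CPM in Ts65Dn and was not called. Retinoic acid genes rose in 10 of 24 and fell in 3 (10 higher and 3 lower, median 0.32, without Ts65Dn library 3). Aldh1a1, which makes the acid, was at 11.3, 11.7 and 10.7 CPM in euploid and 64.6, 70.1 and 71.2 CPM in Ts65Dn, and Dhrs3, which turns its precursor back, at 33.9, 41.9 and 37.9 CPM in euploid and 138, 171 and 193 CPM in Ts65Dn (log2 fold changes 2.61 ± 0.08 and 2.14 ± 0.14, edgeR adjusted p = 1.08e-05 and 8.76e-05). Of 52 BMP and TGF-beta genes 23 were higher and 7 lower (23 higher and 7 lower, median 0.30, without Ts65Dn library 3), with 15, 14 and 14 higher without euploid library 1, euploid library 3 or Ts65Dn library 2. Tgfbr3, a co-receptor, was at 10.8, 10.3 and 11.2 CPM in euploid and 32.2, 32.4 and 37.7 CPM in Ts65Dn.

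Of 34 Notch genes 7 were called higher and 9 lower (3 higher and 9 lower, median -0.09, without Ts65Dn library 3), and higher calls numbered 3 without euploid library 1 or Ts65Dn library 2 and 4 without euploid library 2. The ligands Dll1, Dll3 and Jag2 changed by -0.74, -1.15 and -1.28 and the target Hes5 by -1.84, while the target Hes1 rose by 0.84. Growth factor genes of the FGF, EGF and IGF families rose in 20 of 54 and fell in 8 (20 higher and 9 lower, median 0.10, without Ts65Dn library 3). Igfbp2, an IGF-binding protein, was at 1503, 1878 and 1332 CPM in euploid and 5329, 8622 and 8617 CPM in Ts65Dn (log2 fold change 2.26 ± 0.23, edgeR adjusted p = 4.90e-04). Mdk, the growth factor midkine, was at 38.3, 48.4 and 42.9 CPM in euploid and 139, 159 and 174 CPM in Ts65Dn. Axon guidance genes were lower in 33 of 71 and higher in 16 (21 lower without euploid library 2, and 15 higher and 33 lower, median -0.26, without Ts65Dn library 3). Epha2, an ephrin receptor, was at 7.12, 9.23 and 7.94 CPM in euploid and 38.7, 62.8 and 66.95 CPM in Ts65Dn and Efna5, an ephrin, at 13.4, 10.1 and 10.3 CPM in euploid and 49.4, 57.00 and 59.3 CPM in Ts65Dn, whereas Unc5d, a netrin receptor, was at 93.5, 77.5 and 69.6 CPM in euploid and 32.2, 24.6 and 11.3 CPM in Ts65Dn.

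Immediate early genes, which neuronal activity and growth factors induce within minutes, rose in 17 of 39 and fell in 4 (17 higher and 4 lower, median 0.33, without Ts65Dn library 3), with lower calls of 1 without euploid library 1 or euploid library 2 and 2 without Ts65Dn library 1. Those that rose included Fos (1.12), Junb (0.65) and Egr1, which was at 26.9, 29.4 and 31.3 CPM in euploid and 76.4, 102 and 110.1 CPM in Ts65Dn (log2 fold change 1.72 ± 0.14, edgeR adjusted p = 2.10e-04). Nr4a2, a nuclear receptor, changed by -0.86. Npas4 and Bdnf, which depend on neuronal activity, were at 5.25, 6.495 and 6.91 CPM in euploid and 4.91, 4.92 and 2.54 CPM in Ts65Dn and at 24.3, 18.96 and 18.1 CPM in euploid and 16.6, 21.03 and 13.8 CPM in Ts65Dn and were not called.

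The list of 30 subunits of the BAF chromatin remodelling complex held 1 gene of the triplicated segment. Of the 30, 5 were called higher and 11 lower (3 higher and 11 lower, median -0.19, without Ts65Dn library 3). Higher calls numbered 2 without euploid library 1 or Ts65Dn library 2 and 3 without euploid library 3, and lower calls 7 without euploid library 2, euploid library 3 or Ts65Dn library 2. Actl6b, the subunit of postmitotic neurons, was at 81.1, 92.04 and 76.1 CPM in euploid and 39.4, 35.2 and 14.2 CPM in Ts65Dn and its progenitor counterpart Actl6a rose by 0.47. Ss18l1 and Dpf1, of neuronal complexes, changed by -0.70 and -0.80, and Ss18 and Dpf2, of progenitor complexes, rose by 0.55 and 0.26. Actl6a lost its call without euploid library 1 (edgeR adjusted p = 0.0517) and Dpf2 without each library but Ts65Dn library 1 (0.117, 0.0898 and 0.0636 without the euploid libraries, 0.106 and 0.119 without Ts65Dn libraries 2 and 3). Bcl11a and Bcl11b, which are also transcription factors of cortical neurons, changed by -1.30 and -1.30. The ATPase genes Smarca2 and Smarca4 were at 311, 322 and 313 CPM in euploid and 292, 309 and 302 CPM in Ts65Dn and at 356, 403 and 349 CPM in euploid and 297, 342 and 329 CPM in Ts65Dn and were not called.

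Clustered protocadherins, adhesion proteins of which neurons choose a few each, were lower in 23 of 54 and higher in 3 (3 higher and 21 lower, median -0.28, without Ts65Dn library 3). Pcdha6 was at 5.70, 6.32 and 5.62 CPM in euploid and 2.27, 1.74 and 0.946 CPM in Ts65Dn, and Pcdhgc3, a constant isoform expressed beyond neurons, at 151, 150.1 and 150.4 CPM in euploid and 197, 253 and 253 CPM in Ts65Dn, in the opposite direction (log2 fold changes -1.82 ± 0.26 and 0.64 ± 0.11, edgeR adjusted p = 0.00215 and 0.00444). Isoforms of a cluster share their last exons, so their counts are uncertain. Imprinted genes fell in 14 of 36 and rose in 8 (8 higher and 17 lower, median -0.32, without Ts65Dn library 3). H19, a non-coding RNA, was at 0.737, 0.486 and 0.535 CPM in euploid and 5.11, 8.73 and 6.92 CPM in Ts65Dn, and Magel2, of the Prader-Willi region, at 7.12, 4.99 and 4.91 CPM in euploid and 1.87, 2.12 and 0.903 CPM in Ts65Dn. Snhg11, a neuronal host gene of small nucleolar RNAs that the annotation counts as protein-coding, was at 259.6, 263 and 257 CPM in euploid and 59.4, 42.8 and 23.2 CPM in Ts65Dn (log2 fold change -2.63 ± 0.30, edgeR adjusted p = 7.95e-04), and Malat1, a nuclear RNA of all cells, at 606, 505 and 554 CPM in euploid and 1072, 1122 and 1148 CPM in Ts65Dn (log2 fold change 1.005 ± 0.10). Of 40 tested non-coding RNAs 17 were lower and 7 higher (6 higher and 16 lower, median -0.23, without Ts65Dn library 3).

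Long genes were more often lower. Of 209 genes spanning over 500 kb, 119 were called lower and 33 higher, with a median of -0.66 (-0.51 without Ts65Dn library 3), and of 705 genes of 200 to 500 kb 275 and 167 (median -0.17). Genes of up to 5 kb had a median of 0.05. The medians of the bins between lay from -0.05 to 0.03.

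**Figure D4:**
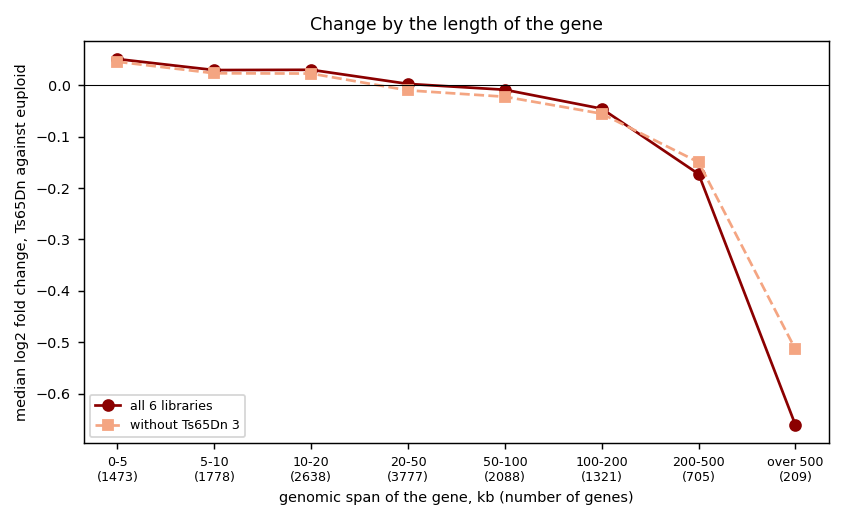
Median log2 fold change of Ts65Dn over euploid (vertical) in bins of genomic span in kb (horizontal, with the number of genes), for all 6 libraries and without Ts65Dn library 3. The median is 0.05 in genes of up to 5 kb and -0.66 in genes over 500 kb (-0.51 without library 3).

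Of the 1103 genes that lost the call without Ts65Dn library 3, 6 of those with the largest changes at 5 CPM or more are described. Zc3h12a, an RNase that restrains inflammation, was at 2.85, 3.71 and 3.43 CPM in euploid and 4.11, 5.26 and 7.22 CPM in Ts65Dn, and Tnfaip3, an inhibitor of NF-kappaB, at 6.73, 4.99 and 4.19 CPM in euploid and 6.38, 8.73 and 9.76 CPM in Ts65Dn. Without library 3 the log2 fold change went from 0.73 (0.0352) to 0.48 (0.0725) for Zc3h12a and from 0.65 (0.0462) to 0.51 (0.0711) for Tnfaip3, with the edgeR adjusted p in parentheses. Cdt1, which licenses replication origins, went from 0.61 (0.0459) to 0.47 (0.0751), and S100b, a calcium-binding protein of astrocytes, from 0.72 (0.0468) to 0.57 (0.0746). Among the lower genes, Rasa4, which restrains Ras, went from -0.61 (0.0304) to -0.52 (0.0506) and Abcb6, a porphyrin transporter, from -0.58 (0.0325) to -0.44 (0.065). Tnfaip3 also lost its call with the replicate number as a block. The calls were near the threshold, and each of these 6 genes lost its call without at least 3 other libraries as well.

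The genes called in every comparison leaving out a library that did not overlap between groups numbered 4108, of which 2385 were higher and 1723 lower. Outside the segment, the 8 protein-coding genes with the largest rise among those of at least 5 CPM were Pax3, Mab21l2, Foxb1, Pax7, Irx2, Barhl2, Irx1 and Capn11, a calpain protease at 0.0491, 0.133 and 0.0892 CPM in euploid and 9.93, 9.69 and 8.99 CPM in Ts65Dn. The 8 with the largest fall were Ttr, Dcn, Snhg11, Gm47283, Hapln1, Pdyn, Calb2 and Syt13, a synaptotagmin at 24.1, 25.3 and 18.6 CPM in euploid and 6.14, 4.44 and 3.53 CPM in Ts65Dn (log2 fold change -2.26 ± 0.21, edgeR adjusted p = 3.40e-04).

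**Figure D5:**
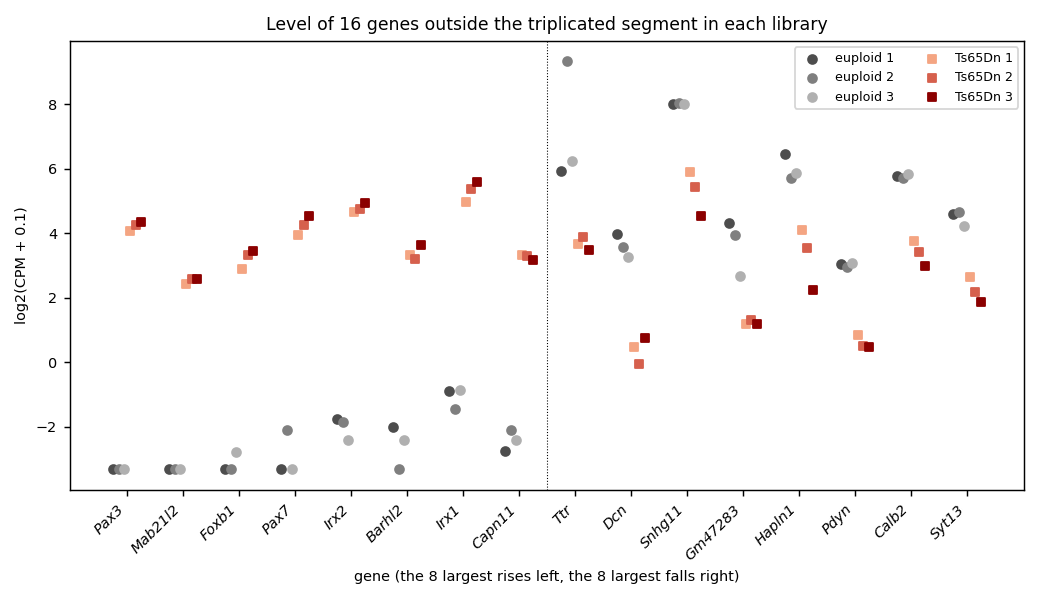
Level in each library, in log2 of CPM plus 0.1, of the 8 genes outside the segment with the largest rise (left) and the 8 with the largest fall (right), euploid libraries as circles and Ts65Dn libraries as squares. The groups are separate in all 16 genes, euploid libraries are under 0.5 CPM in the left ones, and euploid library 2 stands far above the others in Ttr.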

How the data were processed

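Libraries of culture RNA had been made with the TruSeq RNA kit and sequenced as single reads. Per the labels, the authors aligned reads to mm10 with HISAT2, and the deposited values are whole-number counts of reads per gene and library, not normalised. The study names featureCounts, whereas each file ends in the tally lines that htseq-count writes. Whether reads were counted by strand is not given in the sources used here, and this kit does not mark strand, so reads of overlapping and antisense genes cannot be told apart. The lines that name no gene took 37.8 to 39.9% of counts and were left out. Of 52636 identifiers 99.6% had a symbol and 99.7% were in GENCODE M21.

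Groups came from the labels alone. Counts of the 6 libraries were filtered with filterByExpr, scaled by TMM and fitted with edgeR 4.0.16 in R 4.3.3, with genotype as the only factor and the quasi-likelihood test with Benjamini-Hochberg adjustment at 0.05. The study had used DESeq2 after a correction for unwanted variation. CPM were scaled by TMM factors, and log2 CPM used a prior count of 2. Each gene list is described by its calls and median, and no test was made over a list. The members and lists were chosen with earlier results of these data known. The text names, outside the segment and among protein-coding genes of at least 5 CPM, the 8 largest rises and the 8 largest falls that were called in the main fit and in each fit without 1 library with separate groups. It also names up to 4 called members with the largest change and the most abundant member of a list, the 5 largest higher and lower calls lost without Ts65Dn library 3, Brwd1, and other members chosen after their values were seen. A few genes that these rules gave are not reported here. Folds against a group at 0 used a floor of 3 counts over the group. Promoters were the 250 bases before RefSeq starts (GRCm38.p6), which 11745 of 16796 tested symbols had.

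Alternatives were all 9 culture libraries, other scalings and filters, 1 factor of unwanted variation estimated from residuals, DESeq2 1.42.0, voom of limma 3.58.1, a replicate block, and leaving out each library. Deviations of libraries with the same number correlated across genes (0.135, 0.223 and 0.279), and those with unlike numbers gave between -0.23 and 0.024. Only the replicate block took the numbers to pair the samples. The main fit, with its calls, SE and adjusted p, did not. The labels do not say what a number marks. The procedure was also run on simulated counts. These had a common spread for all genes and both groups, unlike these libraries, so no conclusion about the present calls is drawn from them.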

Additional observations from a re-analysis of the deposited data

How the results depend on the processing

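Lower calls ranged from 2139 to 3351 when each library was left out, beside 3440 with all 6, and the lowest values came without euploid libraries 1 (2155) and 2 (2139). Higher calls ranged from 2817 to 3303 in the same fits. The count of called genes was 8017 with all 9 culture libraries in the fit, 7083 with size factors of DESeq2, 7152 with upper-quartile scaling, 6996 without the filter (of 31840 genes), 6650 with at least 10 counts in every library (of 15360), 8640 at an adjusted p under 0.1, 8287 with 1 factor of unwanted variation, 6351 with DESeq2 and 7854 with voom and sample weights. Upper-quartile scaling split the calls into 4150 higher and 3002 lower and moved the median of all genes to 0.07. With the replicate number as a block, which assumes that equal numbers pair the samples, 7737 genes were called (3900 higher, 3837 lower). Among genes that the naming rules gave, the block removed the calls of Tnfaip3 and mt-Atp8 and added Kcnj10, Cacna1a, Dner and Ntrk2.

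Of 274 called genes that the naming rules gave, 4191 of 4352 values in other settings kept call and direction, and the other 161 kept the direction alone. Without euploid library 1, 2 and 3, 39, 39 and 21 lost it, and without Ts65Dn library 1, 2 and 3, 6, 23 and 16. The cause was not tested. Counts of calls within gene lists depended on the setting: of 62 lists, the larger of the higher and lower count moved by over 1.5 times in 19, 20 and 10 without euploid library 1, 2 and 3, in 3, 11 and 2 without Ts65Dn library 1, 2 and 3, in 2 with the block and in 5 with the factor of unwanted variation, and either count in 220 of 992 combinations of list and setting. Of 992 list medians 77 moved by more than the SD of the Ts65Dn libraries' mean levels. List medians near 0 changed sign for heat shock genes, glycolysis and Notch. Single genes that were not called and crossed 0 were Ckap5 (0.031 with all 9 libraries, 0.059 with upper-quartile scaling, 0.00035 with at least 10 counts in every library, -0.056 to 0.031 leaving out a library), Prdx6 (-0.050 with voom), Psap (-0.00293 with DESeq2 size factors and with DESeq2, -0.040 to 0.035 leaving out a library) and Cd68 (-0.23 to 0.012). DESeq2 gave no adjusted p for Ttr. With 3 libraries a group, residual degrees of freedom were 4, and 3 without a library.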

Other observations

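Of 27 genes of cholesterol synthesis and uptake, 17 were called lower in Ts65Dn and 3 higher, with a median log2 fold change of -0.56 (3 higher and 16 lower, median -0.43, without Ts65Dn library 3), but 4 and 3 were lower without euploid library 1 or euploid library 2. Mvd, an enzyme of the mevalonate branch, was at 47.2, 66.3 and 39.6 CPM in euploid and 29.9, 29.1 and 15.7 CPM in Ts65Dn (log2 fold change -1.04 ± 0.27, edgeR adjusted p = 0.0191, and 0.0525 and 0.0699 without euploid libraries 1 and 2). Srebf1, which drives fatty acid synthesis, was at 739.5, 879 and 793 CPM in euploid and 1356, 1640.3 and 1773 CPM in Ts65Dn, and Scd1, a desaturase under its control, at 274, 255 and 259 CPM in euploid and 537, 548 and 601 CPM in Ts65Dn, both higher (0.98 ± 0.13 and 1.10 ± 0.09). Over 45 genes of fatty acid metabolism 18 were higher and 10 lower, and 4 and 5 lower without euploid libraries 1 and 2, and 17 higher and 9 lower, median 0.15, without Ts65Dn library 3. Lysosomal and autophagy genes rose in 26 of 49 and fell in 9 (4 without euploid library 2, and 23 higher and 7 lower, median 0.26, without Ts65Dn library 3). Ctsz, a protease, was at 14.6, 16.3 and 17.5 CPM in euploid and 61.99, 63.9 and 67.1 CPM in Ts65Dn, and Ctsd, the main aspartic protease of lysosomes, at 475, 507 and 443 CPM in euploid and 939, 1111 and 1132 CPM in Ts65Dn (log2 fold changes 1.99 ± 0.09 and 1.16 ± 0.11), while Psap, which encodes the saposins, was at 4283, 4396 and 4102 CPM in euploid and 4072, 4236 and 4556 CPM in Ts65Dn and was not called.

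Of 47 antioxidant genes and targets of the factor NRF2 21 rose and 5 fell (17 higher and 5 lower, median 0.18, without Ts65Dn library 3, and lower calls numbered 3 without euploid library 1 or euploid library 2 and 2 without euploid library 3 or Ts65Dn library 2), with Nqo1, a quinone reductase, at 2.65, 1.86 and 2.19 CPM in euploid and 4.55, 5.11 and 5.33 CPM in Ts65Dn and Slc7a11, the cystine transporter, at 12.9, 9.15 and 10.4 CPM in euploid and 4.91, 3.76 and 3.31 CPM in Ts65Dn in the opposite direction. Of 42 genes of the integrated stress and unfolded protein responses 18 rose and 6 fell (8, 9 and 8 rose without euploid library 2, euploid library 3 or Ts65Dn library 2, and 14 higher and 6 lower, median 0.18, without Ts65Dn library 3). Hspb1, a small heat shock protein, was at 1.28, 0.884 and 0.936 CPM in euploid and 5.11, 5.55 and 7.78 CPM in Ts65Dn (log2 fold change 2.57 ± 0.24), though the 33 heat shock genes together had 8 higher and 3 lower (6 higher and 2 lower, median 0.04, without Ts65Dn library 3). Neuropeptide and granin genes fell in 12 of 32 and rose in 5, with a median of -0.65 (5 higher and 13 lower, median -0.37, without Ts65Dn library 3). Their lower calls were 7 without euploid library 2. Their higher calls were 3 without euploid library 1 or Ts65Dn library 2 and 2 without euploid library 2, euploid library 3 or Ts65Dn library 1. Neurotrophin family genes fell in 8 and rose in 5 of 18, with a median of -0.29 (5 higher and 7 lower, median -0.17, without Ts65Dn library 3). Their higher calls numbered 2 without euploid library 1 or euploid library 3 and 3 without euploid library 2.

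Over all genes tested 21.8% were called higher and 20.5% lower. In housekeeping groups, higher and lower calls numbered 11 and 1 of 85 for cytosolic ribosomal proteins, 5 and 10 of 86 for nuclear genes of oxidative phosphorylation, 3 and 1 of 39 for the proteasome, 9 and 6 of 41 for glycolysis and hypoxia, 9 and 10 of 43 for Polycomb and DNA methylation, and 5 and 6 of 24 for the circadian clock. Of 12 mitochondrially encoded genes only mt-Atp8, which overlaps its neighbour mt-Atp6, was called, at 1.37, 1.41 and 1.11 CPM in euploid and 0.878, 0.916 and 0.817 CPM in Ts65Dn, and it lost the call in 13 of 16 other settings, among them the fits without any 1 library. For the list, calls were 0 higher and 0 lower, median -0.06, without Ts65Dn library 3. In the ribosomal list, Rps27l, a p53-induced member, was at 20.1, 18.3 and 19.4 CPM in euploid and 30.7, 31.5 and 35.3 CPM in Ts65Dn, and Atp5j and Atp5o, which lie in the triplicated segment, rose by 0.63 and 0.49 among the oxidative phosphorylation genes. Without Ts65Dn library 3, higher and lower calls were 12 and 0 for ribosomal proteins, 5 and 5 for oxidative phosphorylation, 3 and 0 for the proteasome, 7 and 5 for glycolysis and hypoxia, 6 and 9 for Polycomb and DNA methylation and 4 and 4 for the circadian clock. Leaving out other libraries moved these counts too. The lower calls of oxidative phosphorylation were 3 without euploid library 1, 2 without euploid library 2 or Ts65Dn library 2 and 5 without euploid library 3, and the higher calls 2 without euploid library 1, euploid library 3, Ts65Dn library 1 or Ts65Dn library 2. Higher calls of ribosomal proteins were 7 without euploid library 1, 5 without euploid library 3 or Ts65Dn library 2 and 6 without Ts65Dn library 1, and lower calls 3 with the replicate number as a block. For Polycomb and DNA methylation higher calls were 5 without euploid library 3 or Ts65Dn library 2 and lower calls 6 without euploid library 1 and 5 without Ts65Dn library 2. For glycolysis and hypoxia higher calls were 5 without euploid library 3, and lower calls 2 without euploid library 1 and 3 without euploid library 2, euploid library 3 or Ts65Dn library 2. For the circadian clock higher calls were 3 without euploid library 1 and 2 without euploid library 3 or Ts65Dn library 2, and lower calls 3 without euploid library 3 or Ts65Dn library 2.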
